A study of Homo sapiens with 20 samples.

Results

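SUM159PT is a human triple-negative breast cancer cell line with mesenchymal features, and the libraries described here compare its KOs pool grown as suspended tumorspheres (3D) with the same pool grown attached to plastic (2D). The members were the 6 mRNA libraries titled KOs, 3 of 3D and 3 of 2D, out of 20 libraries in 7 groups. KOs is a mixture of several clones edited with 1 single guide RNA placed at the transcription start site of NNMT, which encodes the enzyme that methylates nicotinamide. Labelled KOs 3D cells formed secondary tumorspheres in ultra-low attachment plates, with 6 days in each round, in DMEM/F12 with B27, 20 ng/mL EGF and 20 ng/mL basic FGF, and their RNA came from a micro kit. Labelled KOs 2D cells were collected at 80% confluency in a serum-containing medium, Ham's F12 supplemented with fetal calf serum (5%), bovine insulin (5 µg/ml) and hydrocortisone (1 µg/ml), and their RNA came from a mini kit. Attachment, medium, serum, hydrocortisone and RNA kit therefore changed together and cannot be told apart. For contrast, the same change of culture was taken in unedited cells (wt 3D and wt 2D) and in KOd (KOd 3D and KOd 2D), a pool of clones in which 2 guides delete exon 1 of NNMT, with 3 libraries per group. The remaining 2 libraries, adherent wt cells moved to tumorsphere medium, entered only the shared estimate of the spread.

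Tumorsphere culture selects for cells that survive and divide without attachment, and it withdraws signals that spread cells receive from the plastic, through integrins, the cytoskeleton and the co-activators YAP and TAZ. Interleukin-1 cytokines act through NF-kB, a family of transcription factors that induces chemokines, acute-phase proteins and its own inhibitors. Hydrocortisone, which was in the adherent medium alone, activates the glucocorticoid receptor, which induces a known set of genes and restrains NF-kB.

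Depth was even. Labelled KOs 3D libraries held 37316513 to 39944290 reads and labelled KOs 2D libraries 39789580 to 43744817, against a lowest total of 26396964 among all 20. Ribosomal RNA took 1.45% to 1.88% of reads in 3D and 0.926% to 2.70% in 2D. The 3 libraries of 3D resembled each other closely, with a correlation of log2 CPM across genes of 0.996 in each pair, whereas 2D replicate A stood apart. In 2D, 2129 genes differed over 2-fold between A and B and 2640 between A and C, against 866 between B and C. CPM, counts scaled to the library size after trimmed-mean normalisation (TMM), is the level used throughout, and a log2 fold change is 3D over 2D.

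NNMT (Entrez 4837, chromosome 11, 114257806 to 114313536, GRCh38.p14) did not check the label of the pool. It was at 85.1, 82.9 and 86.4 CPM in labelled KOs 3D and at 130, 113 and 76.0 CPM in labelled KOs 2D. Levels overlapped between the cultures, and the log2 fold change of 3D against 2D was -0.33 ± 0.17 (± SE, adjusted p = 0.102). NNMT was at 85.7, 79.5 and 130 CPM in wt 3D and 4.64, 5.18 and 5.64 CPM in KOd 3D, so its mRNA in the libraries labelled KOs lay at the level of wt. A change in the protein or in the DNA was not analysed here. The libraries are called labelled KOs for that reason. Of the markers of a claudin-low line, VIM lay at 2734 to 2887 CPM in 3D and 5124 to 5967 CPM in 2D, CD44, AXL and EGFR were also well measured, PGR was at 0 in all 6 libraries, and CDH1 did not pass 0.0501 CPM. Of the markers that such a line should hold low, ERBB2 was at 62.4 to 66.4 CPM in 3D and 61.8 to 99.0 CPM in 2D, and CLDN4 rose from a low level (2.45 ± 0.29).

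Transcript levels differed between tumorspheres and adherent cells at most of the measured genes. Of 16323 genes tested, 10614 passed an adjusted p of 0.05 in edgeR's quasi-likelihood test with Benjamini-Hochberg adjustment. Of the tested genes, 5367 (32.9%) rose in labelled KOs 3D and 5247 (32.1%) fell. These shares are the background for the counts of every gene list below. Where a share of rises is called near that of all genes, the share of falls need not be near 32.1%. Large changes were mostly rises, with 3099 rising and 1117 falling at least 2-fold. At an unadjusted p under 0.05, 11140 genes passed. With library totals as the only scaling, the median of all genes moved to a log2 fold change of 0.24, against 0.02 under TMM scaling, and the split became 6762 rises and 3565 falls. Rises then made up 65.5% of the calls, against 50.6% under TMM scaling. The counts measure the spread between libraries, because the labels do not say that replicates were separate cultures. In bulk RNA, fewer cells of a kind and less RNA per cell cannot be told apart.

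Secreted inflammatory proteins led the rises. CHI3L1 (chromosome 1, 203178931 to 203186704), a secreted chitinase-like glycoprotein, was at 2668, 2584 and 2629 CPM in labelled KOs 3D and at 2.22, 0.966 and 1.05 CPM in labelled KOs 2D. It was among the most abundant transcripts in spheres and low in adherent cells, with a log2 fold change of 10.84 ± 0.87 (adjusted p = 1.3e-08). S100A9 and S100A8 encode the subunits of calprotectin, a calcium-binding and antimicrobial protein released in inflammation. S100A9 was at 956, 885 and 926 CPM in 3D and at 1.84, 0.886 and 0.596 CPM in 2D (9.67 ± 0.35, adjusted p = 6.9e-13). S100A8 was at 338, 336 and 329 CPM in 3D and at 1.53, 0.537 and 0.0568 CPM in 2D (8.81 ± 0.45). PI3, an elastase inhibitor of inflamed epithelia, was at 370, 370 and 360 CPM in 3D and at 0.215, 0.429 and 0.568 CPM in 2D (9.84 ± 0.40). Per kilobase of gene length, CHI3L1 reached a mean of 1430 RPKM and S100A9 1599 RPKM in 3D, near the 1839 RPKM of fibronectin. The groups did not overlap for any of these 4 genes, which the rule that chose the largest changes required.

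The other large rises were a mixed set. They were the interleukin-36 genes IL36RN and IL36B, the collagens COL3A1 and COL14A1, ASB2, which encodes a substrate adaptor of a ubiquitin ligase, and UGT1A7, UGT1A8 and UGT1A9, which encode enzymes that attach glucuronic acid to drugs and steroids. IL36RN, the antagonist of the interleukin-36 receptor, was at 390, 382 and 371 CPM in 3D and at 0.478, 0.403 and 0.341 CPM in 2D (9.85 ± 0.56, adjusted p = 9.5e-10). The UGT1A genes share exons, so their near-equal log2 fold changes of 8.11, 7.97 and 8.04 may count the same reads.

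Most interleukin-1 family ligands rose, IL18 fell, and the receptors moved in both directions. Of its 12 members, 7 rose and 4 fell, with a median log2 fold change of 2.58. IL33, an alarmin of the family, was at 55.2, 52.5 and 48.5 CPM in labelled KOs 3D and at 0.0478, 0.0537 and 0.0568 CPM in labelled KOs 2D. Those values were 2254, 2099 and 2095 reads in 3D and 2 reads in each library of 2D, and the fitted log2 fold change of 9.85 ± 0.25 depends on how such low counts are treated. IL1B was at 213, 216 and 208 CPM in 3D and at 2.27, 2.87 and 2.33 CPM in 2D (6.41 ± 0.23, adjusted p = 6.6e-13). IL1A was at 94.5, 98.1 and 89.8 CPM in 3D and at 3.37, 4.08 and 4.83 CPM in 2D (4.53 ± 0.28). The antagonist IL1RN rose with them (6.73 ± 0.54), as did the signalling receptor IL1R1 (1.55 ± 0.12). The receptor of IL33 moved the other way. IL1RL1 was at 0.907, 1.28 and 1.27 CPM in 3D and at 63.0, 65.5 and 23.9 CPM in 2D (-5.46 ± 0.43), so ligand and receptor changed places as the abundant transcript. IL18, its receptor chain IL18R1 and the shared co-receptor IL1RAP also fell, with log2 fold changes of -2.18 ± 0.11, -0.69 ± 0.21 and -0.44 ± 0.12. IL1R2, a decoy receptor, was at 4.14, 3.81 and 3.82 CPM in 3D and at 7.98, 2.90 and 0.965 CPM in 2D and did not pass the test with all libraries (-0.02 ± 0.43), whereas without 2D replicate A it rose (1.01).

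Every chemokine that could be tested rose. Of 12 listed chemokines regulated by NF-kB, 8 were tested, all 8 rose, and the median log2 fold change was 3.88, while CCL2, CCL7, CXCL5 and CXCL6 were too low to test. CXCL1, a ligand of the neutrophil receptor CXCR2, was at 29.7, 27.8 and 28.1 CPM in labelled KOs 3D and at 0.0955, 0.107 and 0.0568 CPM in labelled KOs 2D, where it had 4, 4 and 2 reads (8.29 ± 0.26). CXCL2 was at 107, 104 and 104 CPM in 3D and at 2.98, 10.4 and 2.16 CPM in 2D (4.34 ± 0.40). Reads of CXCL1, CXCL2 and CXCL3 may be shared, because their sequences are alike. CXCL8, which draws neutrophils, was at 364, 374 and 351 CPM in 3D and at 9.00, 51.5 and 76.0 CPM in 2D (3.00 ± 0.47). Its 2D level was lowest in replicate A, and without A the log2 fold change was 2.51. CX3CL1 (5.28), CCL5 (4.76), CXCL3 (3.42), CCL20 (3.06) and CXCL16 (2.39) rose too.

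**Figure D1:**
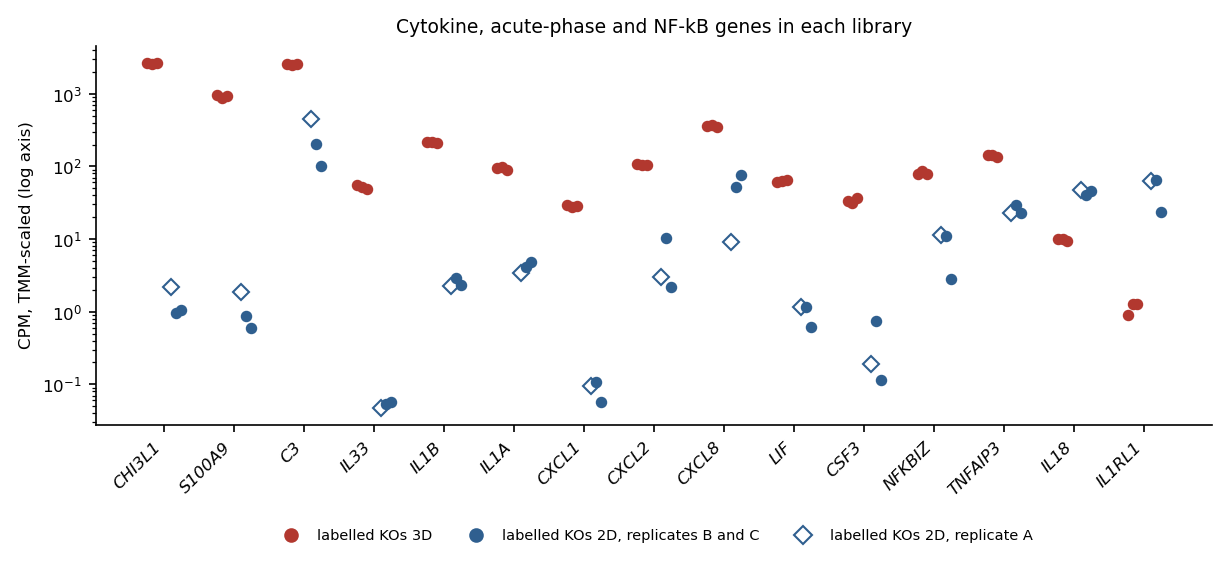
Level of 15 cytokine, acute-phase and NF-kB genes in each library, in TMM-scaled CPM on a log axis, with labelled KOs 3D as filled red points, 2D replicates B and C as filled blue points and 2D replicate A as open diamonds. Points of 3D lie together above those of 2D for 13 genes, from CHI3L1 at 2584 to 2668 CPM downward, and below them for IL18 and IL1RL1.

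The promoters of the chemokine and interleukin-1 genes that rose most are shown because these genes moved together. Of 15 such genes, 11 had a promoter among the RefSeq promoters (GRCh38.p14, 250 bases before to 50 bases after the annotated start), and the 6 with the largest log2 fold changes are printed 5′ to 3′ on the gene's strand. Capitals mark matches on either strand to the kB motif GGAATTTCC or to the AP-1 motif TGANTCA. They span chr9:6214899-6215198 (+) for IL33, chr4:73869143-73869442 (+) for CXCL1, chr2:113117721-113118020 (+) for IL1RN, chr2:112836730-112837029 (-) for IL1B, chr2:112784444-112784743 (-) for IL1A and chr4:74099146-74099445 (-) for CXCL2.
IL33: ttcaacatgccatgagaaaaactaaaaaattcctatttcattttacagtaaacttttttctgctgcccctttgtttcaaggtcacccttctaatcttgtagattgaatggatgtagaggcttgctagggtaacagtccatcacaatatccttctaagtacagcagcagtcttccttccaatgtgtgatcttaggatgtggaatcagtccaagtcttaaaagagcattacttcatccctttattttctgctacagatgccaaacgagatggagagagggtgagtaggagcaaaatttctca
CXCL1: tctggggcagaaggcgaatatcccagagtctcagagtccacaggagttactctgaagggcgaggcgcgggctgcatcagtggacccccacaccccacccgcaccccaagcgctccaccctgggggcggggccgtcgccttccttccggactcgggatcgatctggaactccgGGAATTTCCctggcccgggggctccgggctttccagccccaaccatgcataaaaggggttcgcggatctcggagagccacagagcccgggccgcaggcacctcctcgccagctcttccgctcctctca
IL1RN: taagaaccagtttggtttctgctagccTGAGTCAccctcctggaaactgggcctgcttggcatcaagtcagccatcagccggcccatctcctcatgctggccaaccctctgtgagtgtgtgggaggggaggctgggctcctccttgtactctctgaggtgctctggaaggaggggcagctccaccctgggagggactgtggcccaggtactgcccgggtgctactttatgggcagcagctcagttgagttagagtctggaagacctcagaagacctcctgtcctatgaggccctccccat
IL1B: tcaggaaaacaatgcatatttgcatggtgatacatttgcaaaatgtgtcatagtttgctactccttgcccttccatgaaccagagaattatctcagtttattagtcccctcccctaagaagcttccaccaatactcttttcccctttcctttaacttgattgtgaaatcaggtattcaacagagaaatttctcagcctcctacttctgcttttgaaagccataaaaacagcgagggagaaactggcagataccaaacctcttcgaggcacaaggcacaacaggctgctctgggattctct
IL1A: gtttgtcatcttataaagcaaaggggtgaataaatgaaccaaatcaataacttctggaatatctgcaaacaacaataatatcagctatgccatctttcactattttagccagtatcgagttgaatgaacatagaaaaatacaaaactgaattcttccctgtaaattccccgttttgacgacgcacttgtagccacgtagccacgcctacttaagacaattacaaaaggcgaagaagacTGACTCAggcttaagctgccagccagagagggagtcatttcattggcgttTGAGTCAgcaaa
CXCL2: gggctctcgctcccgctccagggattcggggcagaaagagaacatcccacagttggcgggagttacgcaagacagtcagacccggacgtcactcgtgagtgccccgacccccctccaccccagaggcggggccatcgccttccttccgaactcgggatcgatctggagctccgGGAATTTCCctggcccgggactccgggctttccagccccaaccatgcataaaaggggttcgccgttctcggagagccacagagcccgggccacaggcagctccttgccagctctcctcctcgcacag

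In CXCL1 and CXCL2 the kB match began 78 and 77 bases before the start. IL1RN held 1 AP-1 match and IL1A held 2, while IL33 and IL1B held neither motif in this window. Among the 11 promoters, 4 held the kB motif (CXCL1, CXCL2, CXCL3 and CXCL8) and 3 held the AP-1 motif (IL1RN, IL1A and CXCL8). Of all 27305 promoters of that length, 0.472% held the kB motif and 7.76% the AP-1 motif. Among the 12494 promoters of tested genes the shares were 0.456% and 5.15%, and among all 3952 promoters of genes that rose the shares were 0.810% and 6.17%. The chemokine promoters come from a few related genes, and a match of letters does not show that a factor binds. For kB only the exact string GGAATTTCC was counted, so kB sites of any other sequence could not score in any promoter.

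Genes of the interleukin-6 and colony-stimulating factor list rose in 10 of 14 and fell in 2, with a median of 1.20. CSF3, the granulocyte growth factor, was at 33.8, 31.4 and 36.8 CPM in labelled KOs 3D and at 0.191, 0.752 and 0.114 CPM in labelled KOs 2D (6.58 ± 0.40). LIF, which acts through gp130, was at 60.5, 62.7 and 64.8 CPM in 3D and at 1.15, 1.15 and 0.625 CPM in 2D (5.99 ± 0.25). Both cytokines were thus low in each adherent library and high in each sphere library. IL6 (2.53 ± 0.24) and CSF1 (1.29 ± 0.12) rose less, and the receptors IL6R (-1.58 ± 0.11) and LIFR (-0.72 ± 0.09) fell.

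NF-kB subunits and feedback inhibitors rose in 14 of 18 and fell in 1, with a median of 0.82. The largest rises were in inhibitors and co-regulators that NF-kB itself induces. TNFAIP3, the deubiquitinase A20, was at 142, 142 and 135 CPM in 3D and at 22.9, 29.2 and 22.7 CPM in 2D (2.48 ± 0.13, adjusted p = 4.9e-11). NFKBIZ (3.26 ± 0.30) and TNIP3 (3.21 ± 0.27) rose with it, and the subunit NFKB2 rose by 1.07 ± 0.11. The subunit RELA had 69.9, 69.7 and 70.3 CPM in 3D and 51.5, 72.6 and 67.9 CPM in 2D, which did not pass the test (0.13 ± 0.15, adjusted p = 0.461). BIRC3, an inhibitor of cell death, had a log2 fold change of -0.26 ± 0.11, which no longer passed without 2D replicate A.

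Acute-phase and antimicrobial genes had the largest median of all lists with at least 10 tested members, 5.33 (6.10 without A), and 19 of 21 rose while 2 fell. The summed level of the list was 8864 to 9058 CPM in labelled KOs 3D and 231 to 730 CPM in labelled KOs 2D. Complement genes took a large share. C3 was at 2544, 2511 and 2593 CPM in 3D and at 444, 201 and 102 CPM in 2D (3.36 ± 0.44). C1S, a protease of the classical pathway, was at 264, 262 and 258 CPM in 3D and at 9.53, 6.84 and 3.78 CPM in 2D (5.27 ± 0.27). C1R (5.46), CFB (5.19), SAA1 (3.18) and SAA2 (3.8) rose as well, and reads of the last pair may be split because their sequences are alike. PTX3 (-0.50 ± 0.19) and LTF (-1.76 ± 0.43) fell. HLA class I antigen presentation rose in 14 of 22 and fell in 3, with a median of 0.81. HLA-B was at 937, 885 and 952 CPM in 3D and at 227, 139 and 140 CPM in 2D (2.46 ± 0.21), although reads among HLA genes may be split. TAPBPL (1.94) and ERAP1 (0.96), a peptide-loading chaperone and a peptide-trimming enzyme, rose, while the chaperones CALR, CANX and PDIA3 fell.

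Markers of leukocytes were checked because acute-phase and chemokine genes are also expressed by them. MS4A1 and TYROBP were at 0 in all 6 libraries and PTPRC, the pan-leukocyte antigen, was at 0.100 to 0.392 CPM in 3D and 0.617 to 2.03 CPM in 2D. The summed level of the 7 defining markers was 188 to 200 CPM in 3D and 63.0 to 105 CPM in 2D, nearly all of it CD68, a lysosomal protein. CD14, a monocyte co-receptor, was at 5.32, 4.41 and 5.10 CPM in 3D and at 0.597, 0.752 and 0.369 CPM in 2D (3.10 ± 0.36), and the part of such cells in the inflammatory result was not tested. In the longer leukocyte list, 5 of 8 tested members rose and 1 fell, with a median of 1.07.

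Interferon-stimulated genes rose, but the size of the rise turned on adherent replicate A. Of 40 genes, 33 rose and 1 fell, with a median log2 fold change of 1.23. Without A, 37 rose and 1 fell and the median was 1.91, against a background of 37.4% of all genes rising and 33.5% falling. With A as the single 2D library, the median was 0.65. The summed level was 2903 to 2963 CPM in labelled KOs 3D, and in labelled KOs 2D it was 2037 CPM in A, against 1320 and 1050 CPM in B and C. IFIT2, an antiviral protein that binds RNA, was at 72.0, 70.5 and 68.7 CPM in 3D and at 113, 7.97 and 2.70 CPM in 2D. Its log2 fold change was 0.77 ± 0.72 (adjusted p = 0.361) with A and 3.71 (adjusted p = 1.3e-08) without it. OASL was at 254, 254 and 251 CPM in 3D and at 143, 20.5 and 9.40 CPM in 2D (2.13 ± 0.61, and 4.08 without A). Members less raised in A kept their rise in either reading, such as OAS3 at 48.7, 47.2 and 47.7 CPM in 3D and 21.1, 16.7 and 15.3 CPM in 2D (1.43 ± 0.13). GBP1 was the member that fell (-0.62 ± 0.14).

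The calls of the sterol pathway rested on adherent replicate A. Its 25 genes encode the enzymes from acetyl-CoA to cholesterol, the LDL receptor and their regulators, all induced when sterols are scarce. With all libraries, 2 rose, 2 fell and 21 did not pass, with a median log2 fold change of 0.25. Without A, 21 rose and 2 fell, with a median of 1.30. With A as the single 2D library, the median was -0.72. The summed level was 4060 to 4099 CPM in labelled KOs 3D, between the 6220 CPM of 2D replicate A and the 1920 and 1850 CPM of B and C. INSIG1, a sterol-sensing brake on the pathway, was at 230, 232 and 219 CPM in 3D and at 382, 32.9 and 24.2 CPM in 2D (0.63 ± 0.64, adjusted p = 0.398). HMGCS1 was at 292, 296 and 281 CPM in 3D and at 395, 37.5 and 48.5 CPM in 2D (0.85 ± 0.59). In both genes the spheres lay above B and C and below A. STARD4 (1.55 ± 0.37) and SREBF2 (0.98 ± 0.30) rose and PMVK (-0.78 ± 0.09) and EBP (-1.04 ± 0.23) fell with all libraries.

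**Figure D2:**
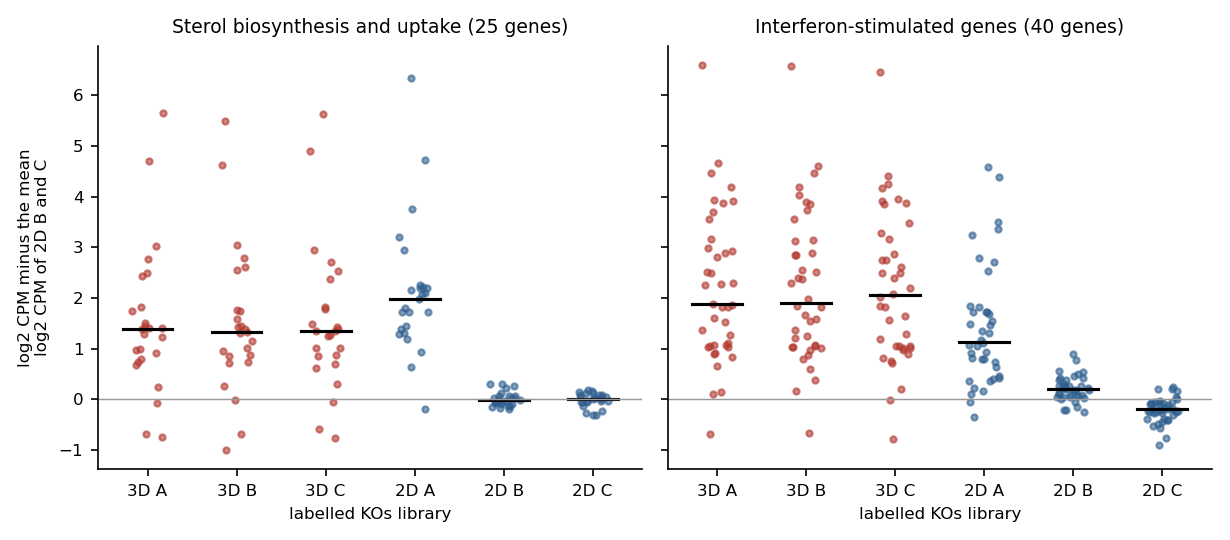
Log2 CPM of each gene in each labelled KOs library minus its mean in 2D replicates B and C, for the 25 sterol genes (left) and the 40 interferon-stimulated genes (right), with bars at the medians. In 2D replicate A the medians are 1.99 and 1.14, above B and C, and the sterol median of A is also above those of the 3D libraries.

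Replicate A set the size of several named changes. The largest rises and falls were chosen in part for keeping their direction without A, so those directions are not a separate result. Over all tested genes, 10084 passed in the same direction with and without A and 0 passed in opposite directions. Both fits hold B, C and the same 3D libraries, so a pass in opposite directions was hardly possible. A further 530 passed with all libraries but not without A, and 1482 passed without A but not with all libraries. With A as the single 2D library, 8557 genes passed, and of the genes that passed both then and against B and C alone, 7009 had the same direction and 276 the opposite one. The same 3D libraries entered both of those fits. Of the 24 largest rises and falls, 8 moved over 1.5-fold without A. They were S100A9, S100A8, COL3A1, COL14A1, UGT1A7, UGT1A8, UGT1A9 and NEDD9. COL3A1 was at 2826, 2863 and 2913 CPM in labelled KOs 3D and at 25.5, 1.5 and 2.21 CPM in labelled KOs 2D, and its log2 fold change was 8.19 ± 0.86 with A and 10.59 without. S100A8 moved to 10.09, S100A9 to 10.27, COL14A1 to 10.32, and UGT1A7, UGT1A9 and UGT1A8 to 8.72, 8.83 and 8.79. NEDD9, a focal adhesion scaffold, fell by 4.41 on the log2 scale with A and by 3.62 without.

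Among the other genes named here, without A the rises of CCL5 (7.27), QPRT (7.67), CCND2 (6.00), CFB (6.43), C1R (6.10), C3 (4.07), CX3CL1 (6.41), IL1RN (7.56), CD36 (5.24), COL5A3 (7.54), ITGB2 (6.74), ITGB8 (3.86), LAMA5 (3.28), NOTCH3 (7.01), KRT17 (2.63), SREBF2 (1.78) and STARD4 (2.56) were over 1.5-fold larger on the linear scale. The falls of KRT5 (-2.19), TSPAN8 (-1.35, against -2.04 with A), ITGA10 (-1.60), LTF (-0.92) and CRYAB (-2.92) were over 1.5-fold smaller without A. Each of these kept its direction and passed the test in both readings. PDIA3 and RPL22 no longer passed without A (-0.18 and -0.28).

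Between A and the mean of B and C, 1872 genes were over 1 log2 unit higher in A and 337 were over 1 unit lower. Above a mean level of 2 log2 CPM in the adherent libraries, the 8 genes highest in A were IFIT2, TMEM130, COL3A1, INSIG1, OLFML3, IFIT1, SELENOP and OASL. The 8 lowest were MMP1, ANGPTL4, CXCL8, ID2, ID1, SPOCD1, GPRC5A and BDKRB1. TMEM130 was at 2.48, 1.98 and 2.43 CPM in 3D and at 33.5, 1.80 and 2.02 CPM in 2D, so its fall of 2.44 on the log2 scale rested on A, and without A the log2 fold change was 0.27 (adjusted p = 0.48). MMP1, a collagenase, was at 613, 619 and 590 CPM in 3D and at 8.6, 62.3 and 84.3 CPM in 2D (3.56 ± 0.61, and 3.05 without A). What set A apart was not tested. Its ribosomal RNA share of 2.70% was the highest of the 6 libraries, and it held 18498 genes with a read, against 17454 in B, 17293 in C and 19174 to 19280 in 3D.

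Matrix genes rose more often than they fell, with COL3A1, COL14A1 and LAMA4 among the largest changes. Collagen chains rose in 17 of 25 and fell in 4, with a median log2 fold change of 1.10. COL6A1 was at 1335, 1207 and 1397 CPM in labelled KOs 3D and at 170, 108 and 135 CPM in labelled KOs 2D (3.25 ± 0.15). COL6A2, which assembles with it, was at 1246, 1125 and 1315 CPM in 3D and at 146, 125 and 130 CPM in 2D (3.20 ± 0.12). The third chain, COL6A3, differed in direction from its partners, at 2003, 2141 and 2155 CPM in 3D and 3973, 2568 and 2375 CPM in 2D (-0.50 ± 0.16), a fall that no longer passed without A (-0.23). COL12A1 and COL4A4 lost their falls without A as well, which left COL8A1 (-1.32 ± 0.14) as the 1 member that fell. COL5A3 (6.79) and COL27A1 (3.94) rose.

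Laminin and basement membrane genes rose in 12 of 15 and none fell, with a median of 1.31. LAMA4, a laminin chain typical of vessels and mesenchyme, was at 120, 119 and 117 CPM in 3D and at 0.740, 0.349 and 0.312 CPM in 2D (7.95 ± 0.20, adjusted p = 8.6e-15). LAMA3 (2.98), LAMA5 (2.69) and LAMB3 (1.83) rose less. Matrix glycoproteins and proteoglycans rose in 21 of 35 and fell in 7, with a median of 0.97, or 1.96 without A. Fibronectin, FN1, was at 15900, 16960 and 16770 CPM in 3D and at 4572, 2295 and 2259 CPM in 2D (2.44 ± 0.21), which made it a leading transcript of the spheres. SPP1, osteopontin, was at 594, 594 and 553 CPM in 3D and at 14.9, 7.52 and 8.66 CPM in 2D (5.80 ± 0.34). VCAN (2.82) and BGN (5.72) rose too. THBS1 and CCN1, matricellular genes that respond to cell spreading, fell by 3.87 ± 0.29 and 2.99 ± 0.14 on the log2 scale. Collagen modifying enzymes were split, with 6 rises and 8 falls among 21 and a median of -0.19 that turned to 0.02 under library totals. P3H2, a prolyl hydroxylase, fell by 2.44 and ADAMTS14, a procollagen protease, rose by 2.82.

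Proteolysis shifted in composition. Matrix metalloproteinases, their inhibitors and the plasminogen system rose in 18 of 29 and fell in 6, with a median of 1.40. MMP14, the membrane-bound collagenase, was at 818, 806 and 852 CPM in labelled KOs 3D and at 124, 52.0 and 52.4 CPM in labelled KOs 2D (3.44 ± 0.25). The activator PLAU (2.52 ± 0.11) and the inhibitor TFPI2 (5.02 ± 0.39) rose. PLAT, another activator of plasminogen, fell (-2.05 ± 0.17). Integrin subunits rose in 8 of 17 and fell in 3, with a median of 0.33. ITGB2 (5.49), ITGB8 (2.95) and the collagen receptor subunit ITGA2 (1.12) rose, and the fibronectin receptor subunit ITGA5 (-1.05) and ITGA10 (-2.72) fell.

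Markers of fibroblasts and pericytes moved with the matrix genes. All 6 defining markers rose, and their summed level was 511 to 534 CPM in 3D and 103 to 237 CPM in 2D. Of these, DCN and LUM also belong to the list of matrix glycoproteins and proteoglycans, so the 2 sets are not separate. PDGFRA was at 289, 284 and 280 CPM in 3D and at 121, 75.3 and 35.9 CPM in 2D (1.88 ± 0.27). None of the 6 was at 0 in both cultures, and their part in the matrix result was not tested. In the longer list, 10 of 16 tested members rose and 2 fell, with a median of 0.82. Of the endothelial markers, CDH5 did not pass 0.0250 CPM in any library. PECAM1 was at 35.7, 34.0 and 30.6 CPM in 3D and 10.9, 5.96 and 3.61 CPM in 2D (2.28 ± 0.26). KDR went the other way, at 0.147, 0.25 and 0.116 CPM in 3D and 29.1, 3.76 and 4.57 CPM in 2D (-6.17 ± 0.79), highest in 2D replicate A. TEK fell from low levels (-2.60 ± 0.82), and VWF did not pass the test (-0.70 ± 0.67). In the endothelial list 2 of 8 rose and 4 fell, with a median of -0.77, and in the neural list 2 of 6 rose and 3 fell, with a median of -0.71, RBFOX3 and SOX10 being at 0 throughout.

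Epithelial and mesenchymal genes moved in both directions. Basal and squamous genes rose in 6 of 16 and fell in 7, with a median of 0.17, a share of rises near that of all genes. TP63, the transcription factor of basal cells, was at 61.4, 57.4 and 57.8 CPM in labelled KOs 3D and at 18.9, 11.7 and 6.53 CPM in labelled KOs 2D (2.25 ± 0.24). KRT80, a keratin, was among the largest falls, at 26.7, 25.2 and 26.6 CPM in 3D and at 304, 552 and 586 CPM in 2D (-4.20 ± 0.18). Luminal genes rose in 3 of 13 and fell in 5, with a median of -0.23, which without A was 0.17. KRT7 (-3.28), KRT8 (-2.09) and KRT18 (-1.26), the keratins of simple epithelia, fell, and the transcription factor ELF3 rose by 6.21 ± 0.58 on the log2 scale from very low adherent levels of 0.119, 0.107 and 0 CPM.

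Transcription factors and structural genes of the epithelial-mesenchymal transition (EMT) did not move as a block, with 7 rises and 10 falls among 19 and a median of -0.48. ZEB2, a repressor of epithelial genes, was at 76.3, 78.2 and 74.3 CPM in 3D and at 26.5, 20.2 and 21.5 CPM in 2D (1.75 ± 0.15), and TWIST1 rose by 1.32 ± 0.14. VIM (-0.98), SNAI2 (-1.28), CDH2 (-1.10), FOXC2 (-2.22), TCF4 (-2.03) and the actin-binding TAGLN (-4.15) fell. Cadherin, claudin and junction genes rose in 6 of 20 and fell in 9, with a median of -0.21 that became 0.01 under library totals. Their share of rises was near that of all genes. The stem cell markers of breast cancer rose in 4 of 13 and fell in 5, with a median of -0.12, or 0.10 under library totals. This share of rises, too, was near that of all genes. CD44 was at 980, 972 and 950 CPM in 3D and at 410, 429 and 506 CPM in 2D (1.11 ± 0.10), and SOX9 rose by 1.60, while PROCR and ALDH1B1 fell. CD24 was at 6.81, 6.76 and 7.04 CPM in 3D and at 63.7, 6.58 and 9.60 CPM in 2D, so its fall of 1.96 rested on 2D replicate A and was -0.23 without it (adjusted p = 0.55).

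The largest falls were genes of mixed kinds. RIPOR2, an inhibitor of the small GTPase RhoA, was at 0.392, 0.626 and 0.301 CPM in labelled KOs 3D and at 122, 93.0 and 34.0 CPM in labelled KOs 2D (-7.56 ± 0.43, adjusted p = 1.9e-10). ID3, a BMP target that blocks differentiation factors, was at 3.85, 3.63 and 3.85 CPM in 3D and at 57.8, 134 and 246 CPM in 2D (-5.27 ± 0.42). DKK1, a secreted inhibitor of Wnt receptors, was at 1.54, 1.5 and 2.08 CPM in 3D and at 42.5, 43.8 and 111 CPM in 2D (-5.26 ± 0.50). CCBE1 (-5.39), INSC (-5.19), NEGR1 (-4.85), OLAH (-4.80), CNR1 (-4.65) and PLAC8 (-4.51) completed the set with IL1RL1, NEDD9 and KRT80. In each of these genes the 3 libraries of 3D lay below the 3 of 2D, which the rule that chose them required.

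Targets of YAP and TAZ fell in 15 of 27 and rose in 4, with a median of -0.57. CCN2, a connective tissue growth factor and a standard YAP target, was at 13.0, 14.2 and 14.4 CPM in labelled KOs 3D and at 82.4, 122 and 206 CPM in labelled KOs 2D (-3.30 ± 0.23). ANKRD1 was at 1.25, 1.90 and 1.90 CPM in 3D and at 16.2, 7.41 and 33.3 CPM in 2D (-3.49 ± 0.43). GADD45B (-2.90), CRIM1 (-2.06) and CCN1 fell too, whereas AMOTL1, which holds YAP in the cytoplasm, rose by 1.12. Glucocorticoid receptor targets fell in 17 of 25 and rose in 4, with the lowest median of the lists with at least 10 tested members, -1.73. FKBP5, a co-chaperone of the receptor, was at 126, 125 and 118 CPM in 3D and at 803, 582 and 467 CPM in 2D (-2.33 ± 0.14). KLF9 (-2.39), CAVIN2 (-2.67), TIPARP (-1.73), SCNN1A (-2.39) and PER1 (-1.39) fell as well. LCN2, an iron-binding acute-phase protein, went the other way (6.50 ± 0.37). TSC22D3 was at 44.1, 41.5 and 43.6 CPM in 3D and at 458, 113 and 93.6 CPM in 2D, and its fall was 2.36 with A and 1.26 without it.

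BMP genes rose in 7 of 23 and fell in 10, with a median of 0.00, a share of rises near that of all genes. The antagonist NOG (-3.54 ± 0.23) and the target ATOH8 (-3.16 ± 0.30) fell with ID3, and GDF15 (4.42 ± 0.26), BMP2 (2.87 ± 0.30) and HEY1 (1.86 ± 0.16) rose. TGF-beta genes rose in 7 of 20 and fell in 8, with a median of 0.09, also a share of rises near that of all genes. PMEPA1 (-1.76) fell and LTBP3 (2.46) rose. Notch genes rose in 12 of 19 and fell in 1, DLL3 (-1.42), with a median of 0.95. NOTCH3 was at 173, 166 and 174 CPM in labelled KOs 3D and at 6.14, 1.77 and 0.852 CPM in labelled KOs 2D (5.84 ± 0.49), and the Notch target HES1 was at 53.6, 49.4 and 52.7 CPM in 3D and at 3.94, 9.02 and 5.54 CPM in 2D (3.08 ± 0.21). Receptor and target thus rose together. Wnt genes rose in 16 of 26 and fell in 5, with a median of 1.29. WNT5A, a non-canonical ligand, was at 79.6, 77.7 and 79.2 CPM in 3D and at 16.1, 6.87 and 8.49 CPM in 2D (2.90 ± 0.25). LGR4 (1.87) and WNT7B (1.55) rose, and DKK3 (-1.36) fell with DKK1.

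Of the growth factor signalling genes, several ligands and feedback phosphatases rose. EGF and basic FGF were added to the medium in 3D alone. EGFR family receptors and ligands rose in 9 of 16 and fell in 3, with a median of 0.99. The ligands EPGN (6.45), EREG (2.52) and TGFA (1.64) rose and the EGFR inhibitor ERRFI1 (-1.04) fell. ERK feedback and growth factor response genes rose in 12 of 25 and fell in 6, with a median of 0.24. DUSP6, a phosphatase that switches off ERK, was at 216, 217 and 221 CPM in labelled KOs 3D and at 29.1, 42.0 and 18.9 CPM in labelled KOs 2D (2.86 ± 0.22). DUSP4 (2.00) and PHLDA1 (2.00) rose, and DUSP1 (-2.12) fell.

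**Figure D3:**
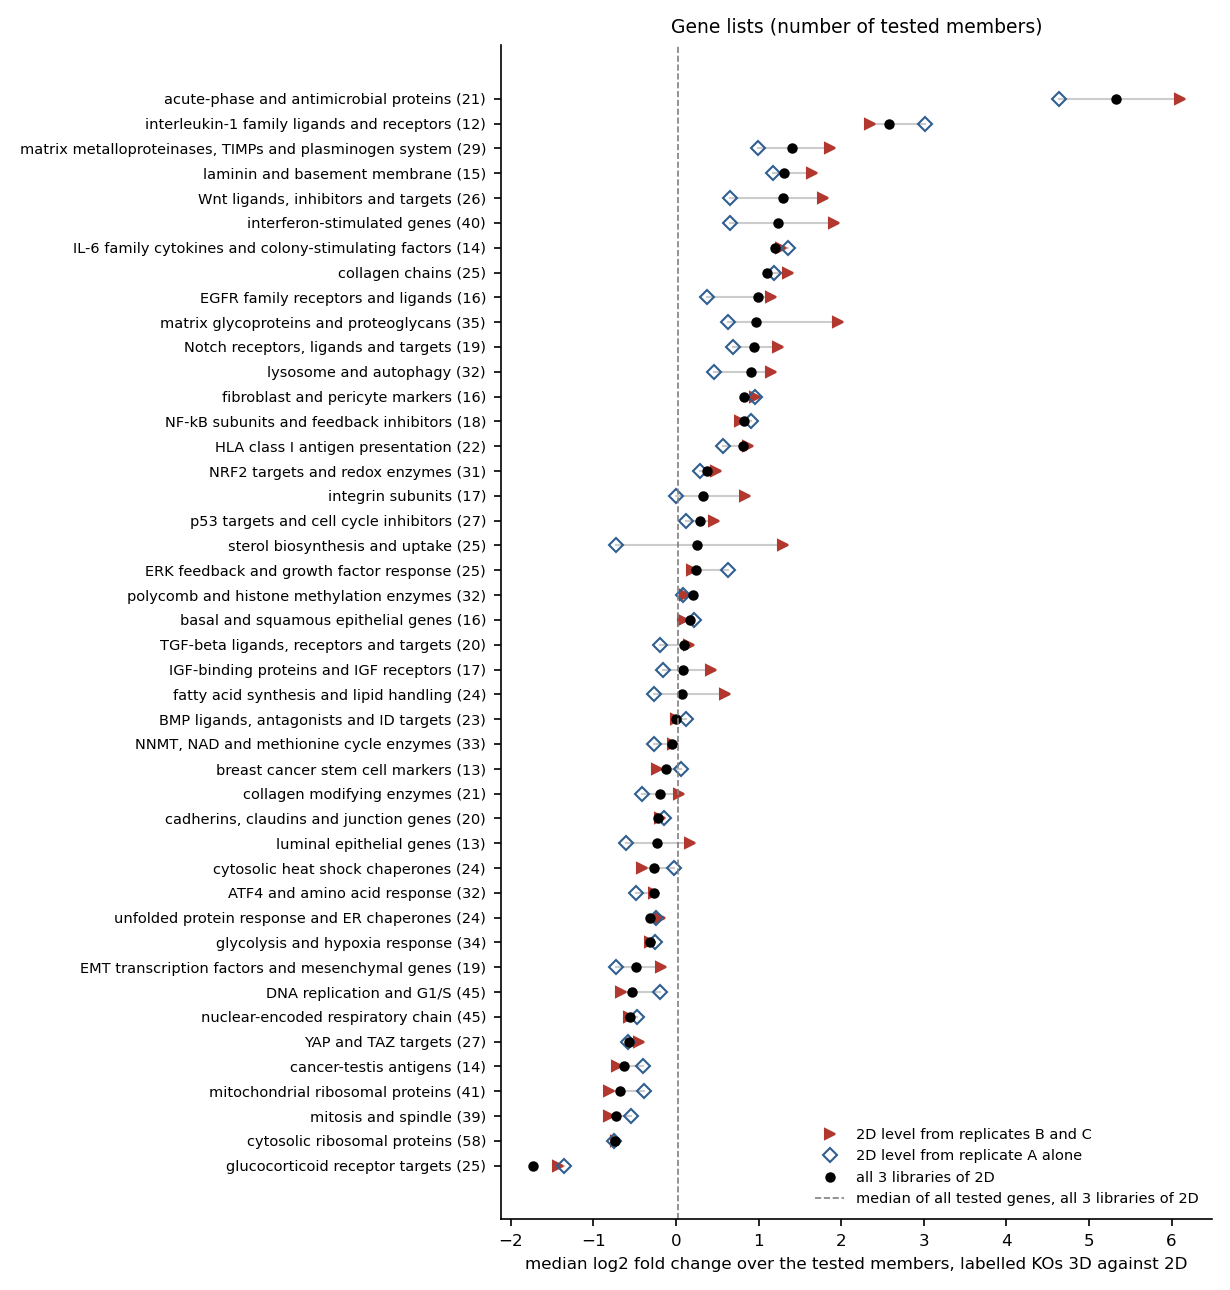
Median log2 fold change of labelled KOs 3D against 2D over the tested members of each gene list with at least 10 of them, with the 2D level taken from replicates B and C (red triangles), from replicate A alone (open diamonds) and from all 3 libraries (black points). The sterol list spans from -0.72 with A alone to 1.30 without A, whereas the ribosomal protein list stays near -0.74.

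Ribosomal protein genes fell in 58 of 58 and none rose. The median log2 fold change was -0.74, and under library totals 53 fell. RPSA was at 217, 213 and 224 CPM in labelled KOs 3D and at 514, 542 and 606 CPM in labelled KOs 2D (-1.34 ± 0.10), and RPL22, with the smallest change, had -0.32 ± 0.13. Together these genes took 3.84% to 3.85% of reads in 3D and 5.47% to 5.71% in 2D. Mitochondrial ribosomal proteins fell in 38 of 41 and none rose, with a median of -0.68, for example MRPL3 (-1.04) and MRPL24 (-0.97). Nuclear-encoded respiratory chain genes fell in 38 of 45 and rose in 1, with a median of -0.56, and under library totals 30 fell. COX6B1 was at 121, 130 and 130 CPM in 3D and at 213, 247 and 266 CPM in 2D (-0.93 ± 0.10), while SDHA had 417, 408 and 413 CPM in 3D and 408, 418 and 384 CPM in 2D and did not pass the test (0.04 ± 0.07).

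Cell cycle genes fell as lists, with exceptions among the best-known proliferation markers. Mitosis and spindle genes fell in 30 of 39 and rose in 4, with a median of -0.73, and the summed level was 4763 to 4885 CPM in 3D and 6069 to 7320 CPM in 2D. CDC20, an activator of the anaphase-promoting complex, was at 140, 147 and 145 CPM in 3D and at 465, 459 and 536 CPM in 2D (-1.76 ± 0.15). PLK1, a mitotic kinase, was at 119, 116 and 118 CPM in 3D and at 204, 345 and 383 CPM in 2D (-1.40 ± 0.20). The 4 members that rose were MKI67, CENPE, CENPF and CDC25B. MKI67, CENPE and CENPF are long genes of the list, with means of 377, 63 and 222 CPM but 30.2, 7.31 and 21.5 RPKM in 3D. The part of gene length in these rises was not tested. MKI67, which encodes the Ki-67 antigen, was at 371, 386 and 374 CPM in 3D and at 89.7, 179 and 109 CPM in 2D (1.58 ± 0.35), and CENPE, a kinetochore motor, was at 60.5, 65.9 and 62.4 CPM in 3D and at 13.5, 18.1 and 11.4 CPM in 2D (2.13 ± 0.27). MKI67 and CDC20 therefore pointed in opposite directions in the same libraries. DNA replication and G1/S genes fell in 30 of 45 and rose in 3, with a median of -0.53. Without A, 36 fell, with a median of -0.665, and with A as the single 2D library the median was -0.19. TK1 (-1.18), RRM2 (-1.21) and GINS2 (-1.10) fell, and CCND2 (4.27) rose at low levels. The p53 target and cell cycle inhibitor list rose in 13 of 27 and fell in 5, with a median of 0.29, GDF15 rising and GADD45A (-1.10) and TP53I3 (-1.39) falling.

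**Figure D4:**
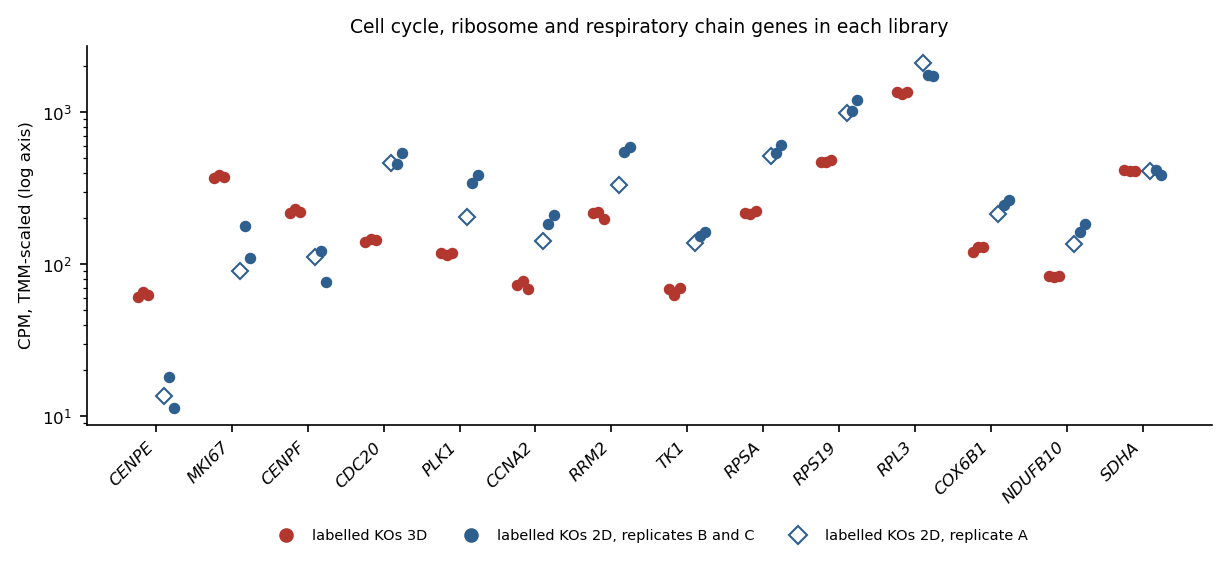
Level of 14 cell cycle, ribosomal protein and respiratory chain genes in each library, in TMM-scaled CPM on a log axis, with labelled KOs 3D as filled red points, 2D replicates B and C as filled blue points and 2D replicate A as open diamonds. CENPE, MKI67 and CENPF lie higher in 3D, with MKI67 at 371 to 386 CPM, SDHA overlaps, and the other 10 lie lower.

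Metabolic lists were mostly mixed. Glycolysis and hypoxia genes rose in 11 of 34 and fell in 17, with a median of -0.32. The share of rises was near that of all genes, and the share of falls was above the 32.1% of all genes. The summed level was 16500 to 16620 CPM in labelled KOs 3D and 21800 to 29240 CPM in labelled KOs 2D. SLC2A1, the glucose transporter GLUT1, fell by 1.34 ± 0.12 and HK1 by 0.84 ± 0.07 on the log2 scale, whereas PFKFB3 (1.35 ± 0.11) and ADM (1.83 ± 0.16) rose. ATF4 and amino acid response genes fell in 16 of 32 and rose in 8, with a median of -0.27. PSAT1, of serine synthesis, was at 13.0, 12.7 and 11.7 CPM in labelled KOs 3D and at 99.2, 68.0 and 70.5 CPM in labelled KOs 2D (-2.67 ± 0.17). ASNS (-2.09), SHMT2 (-0.92) and MTHFD2 (-0.91) fell too, and the cystine transporter SLC7A11 rose by 1.61. Unfolded protein response genes fell in 15 of 24 and rose in 4, with a median of -0.31, but under library totals 7 fell and 6 rose, with a median of -0.09. Cytosolic heat shock chaperones fell in 10 of 24 and rose in 4, with a median of -0.26, CRYAB falling by 3.58 and HSPA12A rising by 1.42.

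Lysosomal and redox genes rose more often than they fell, and lipid genes were mixed. Lysosome and autophagy genes rose in 22 of 32 and fell in 5, with a median of 0.91. CTSS, a cathepsin of antigen-presenting cells, was at 29.8, 27.6 and 26.1 CPM in 3D and at 0.597, 0.429 and 0.369 CPM in 2D (5.88 ± 0.20), and the autophagy receptor SQSTM1 was at 3324, 3266 and 3295 CPM in 3D and at 953, 982 and 970 CPM in 2D (1.77 ± 0.12). NRF2 targets and redox enzymes rose in 18 of 31 and fell in 6, with a median of 0.38. The mitochondrial SOD2, which NF-kB also induces, was at 3269, 3184 and 3138 CPM in 3D and at 874, 661 and 298 CPM in 2D (2.39 ± 0.27), while the cytosolic SOD1 fell by 0.92 ± 0.08. Fatty acid and lipid genes rose in 9 of 24 and fell in 5, with a median of 0.07, a share of rises near that of all genes. Without A 14 rose and 4 fell, with a median of 0.595, and with A as the single 2D library the median was -0.263. APOE was at 710, 577 and 708 CPM in 3D and at 18.7, 4.00 and 3.52 CPM in 2D (6.24 ± 0.57, and 7.46 without A), and CES1 (7.19) and CD36 (4.47) rose. FASN, the fatty acid synthase, was at 643, 587 and 674 CPM in 3D and at 1276, 511 and 352 CPM in 2D and did not pass the test (-0.17 ± 0.30), although without A it rose (0.56).

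Enzymes around NNMT split. The list of NNMT, NAD and methionine cycle enzymes rose in 11 of 33 and fell in 14, with a median of -0.04, or 0.18 under library totals. Its share of rises was near that of all genes. NAMPT, the rate-limiting enzyme that recycles nicotinamide to NAD, was at 546, 536 and 507 CPM in labelled KOs 3D and at 116, 127 and 94.1 CPM in labelled KOs 2D (2.23 ± 0.14). QPRT, which makes NAD from tryptophan breakdown, was at 52.5, 48.9 and 52.9 CPM in 3D and at 4.44, 0.322 and 0.17 CPM in 2D (4.92 ± 0.63, and 7.67 without A). AHCY, which removes the by-product of methylation, fell by 1.14 ± 0.06, and AOX1 and ODC1 fell by 1.78 ± 0.18 and 1.5 ± 0.26.

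The change of culture was not the same in the libraries labelled KOs as in wt and KOd. These comparisons take the 3D against 2D difference of labelled KOs and subtract that of wt or of KOd, and the 4 groups in each share no library. Against wt, 2917 genes (17.9%) were more positive in labelled KOs and 3095 (19.0%) more negative. Against KOd, 3339 (20.5%) were more positive and 3419 (20.9%) more negative. The same 6 libraries labelled KOs enter both comparisons. Each library labelled KOs was deeper and held less ribosomal RNA (0.926% to 2.70%) than each library of wt and KOd (2.82% to 8.46%), and the part of this in the differences was not tested.

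**Figure D5:**
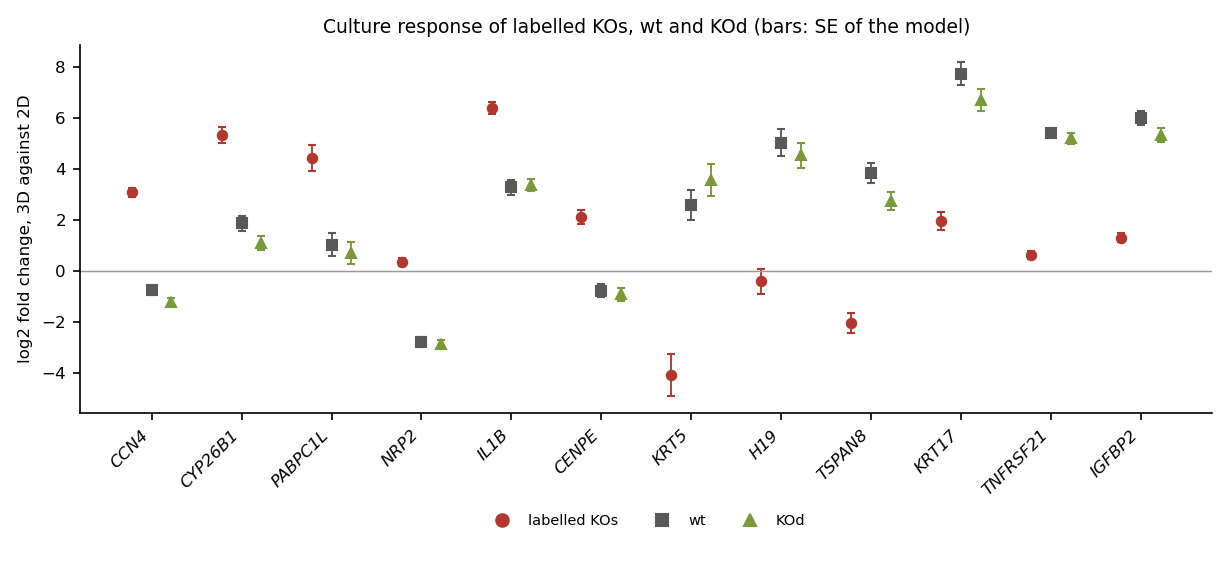
Log2 fold change of 3D against 2D in labelled KOs (red circles), wt (grey squares) and KOd (green triangles) for the 12 genes that differed most from both, with bars for the SE of the model. CCN4 rises in labelled KOs (3.10) and lies below 0 in wt and KOd, and KRT5 falls in labelled KOs (-4.09) and lies above 0 in wt and KOd.

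Genes of division fell less in labelled KOs. In the mitosis list 35 of 39 were more positive in labelled KOs than in wt and none more negative, and against KOd 26 were more positive and none more negative. Median log2 fold changes of 3D against 2D were -0.73 in labelled KOs, -1.62 in wt and -1.43 in KOd. In the DNA replication list 38 of 45 were more positive than in wt, and 23 were more positive and 5 more negative than in KOd, with medians of -0.53 in labelled KOs, -1.52 in wt and -1.18 in KOd. CENPE was at 60.5, 65.9 and 62.4 CPM in labelled KOs 3D and 13.5, 18.1 and 11.4 CPM in labelled KOs 2D. In wt it was at 60.8, 66.0 and 22.3 CPM in 3D and 83.9, 84.5 and 86.8 CPM in 2D, so the adherent libraries of the pools lay far apart, while 2 of the 3 sphere libraries of wt lay at the level of labelled KOs. The difference of response was 2.91 ± 0.37 against wt and 3.06 ± 0.38 against KOd.

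In other lists the counts against wt and against KOd were as follows. Ribosomal proteins were more negative than in wt in 37 of 58 and than in KOd in 9, with medians of -0.74 in labelled KOs, -0.23 in wt and -0.63 in KOd. ATF4 genes were more negative than in wt in 12 of 32 and more positive in 2, whereas than in KOd 26 were more positive and 1 more negative, with medians of -0.27 in labelled KOs, 0.07 in wt and -1.73 in KOd. Matrix glycoproteins were more negative than in wt in 19 of 35 and more positive in 3, and than in KOd more negative in 15 and more positive in 3. Chemokines were more positive than in wt in 4 of 8, and than in KOd in 5 with 2 more negative.

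The 6 genes with the most positive differences were CCN4, CYP26B1, PABPC1L, NRP2, IL1B and CENPE. CCN4, a Wnt-induced matricellular protein, was at 175, 171 and 172 CPM in labelled KOs 3D and 25.0, 16.5 and 19.2 CPM in labelled KOs 2D, and at 24.1, 25.0 and 29.4 CPM in wt 3D and 48.7, 47.5 and 36.9 CPM in wt 2D. Its response thus had opposite signs, and the difference was 3.86 ± 0.24 against wt and 4.31 ± 0.24 against KOd. NRP2, a receptor of semaphorins and VEGF-C, was at 39.2, 41.4 and 39.6 CPM in labelled KOs 3D and 26.4, 34.6 and 32.8 CPM in labelled KOs 2D, and at 5.81, 7.02 and 6.27 CPM in wt 3D and 48.4, 48.4 and 34.3 CPM in wt 2D. IL1B was at 6.20, 5.88 and 4.11 CPM in wt 3D and at 15.5, 17.2 and 10.4 CPM in KOd 3D, far under the 208 to 216 CPM of labelled KOs 3D. Its log2 fold change was 6.41 in labelled KOs, 3.28 in wt and 3.37 in KOd.

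The 6 most negative were KRT5, TSPAN8, KRT17, H19, TNFRSF21 and IGFBP2. KRT17, a keratin of basal and stressed epithelium, was at 19.8, 19.4 and 21.3 CPM in labelled KOs 3D and 8.69, 1.82 and 4.71 CPM in labelled KOs 2D, and at 380, 312 and 473 CPM in wt 3D and 1.68, 1.98 and 1.73 CPM in wt 2D. The difference of response was -5.78 ± 0.54 against wt and -4.72 ± 0.53 against KOd. KRT5, its partner in basal cells, was at 0.319, 0.150 and 0.185 CPM in labelled KOs 3D and 9.12, 1.02 and 0.994 CPM in labelled KOs 2D, whereas KOd had 23.2, 21.4 and 60.5 CPM in 3D and 3.33, 3.04 and 2.42 CPM in 2D. KRT5 rested in part on 2D replicate A, and its difference against KOd was -7.67 ± 1.02 with A and -5.77 without it. TNFRSF21, a death receptor, was at 28.9, 26.9 and 27.9 CPM in labelled KOs 3D and 21.1, 15.3 and 17.7 CPM in labelled KOs 2D, and at 69.2, 69.5 and 54.3 CPM in wt 3D and 1.79, 1.68 and 0.981 CPM in wt 2D. Here too the adherent libraries labelled KOs lay far above those of wt.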

How the data were processed

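Poly(A) RNA from 20 SUM159PT libraries (stranded TruSeq kit, per the labels' protocols) was analysed from raw read counts per Entrez gene, deposited by the authors. STAR and the hg38 build are named in the submitters' processing notes, and the counting tool, its annotation and its use of strand are not given in the sources used here, so overlapping and near-identical genes may share or lose reads. Of 27864 gene IDs, 27740 matched a RefSeq symbol and position (GRCh38.p14). In R 4.3.3, edgeR 4.0.16 (filterByExpr, TMM scaling, 1 mean per group over all 20 libraries, quasi-likelihood test, Benjamini-Hochberg adjustment over all 16323 genes, threshold 0.05) gave every log2 fold change, SE and adjusted p, with 13 residual degrees of freedom. Differences of culture response were contrasts of the same fit. CPM used TMM-scaled library sizes, and RPKM is CPM per kb of the deposited gene length. The procedure was tested on simulated data before use.

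Named genes were NNMT; the 12 largest rises and 12 largest falls without overlap that also passed without 2D replicate A; up to 4 members per list with the smallest adjusted p; the 8 genes highest and 8 lowest in 2D replicate A; and the 6 most positive and 6 most negative genes differing from both wt and KOd. Genes differing from both wt and KOd also had to pass in both differences with the same sign without 2D replicate A. Further list members were picked for naming with their values in view. The groups compared and the 49 gene lists were chosen with earlier results of these data known. Alternatives covered scaling, low-count filters, limma-voom (limma 3.58.1), DESeq2 1.42.0, a replicate block, compared groups alone, stricter thresholds, replicate A alone or left out, ribosomal RNA genes left out, and each library left out. Every pair within labelled KOs 3D and within labelled KOs 2D differed beyond counting noise, so none was taken as a duplicate. The 20 libraries held 26396964 to 43744817 reads, so counting error is small except at the lowest genes. Some members of the lists are not reported here. The labels do not say that letters of replicates (A to C) pair the libraries of 3D and 2D, so the main fit used no pairing.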

Additional observations from a re-analysis of the deposited data

Results flagged for a closer look

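The change from adherent to tumorsphere culture differed between the labelled KOs and the other pools, tested as a difference of responses, in 6012 genes against wt and in 6758 genes against KOd. The 12 named genes were chosen because both differences passed the adjusted p of edgeR's quasi-likelihood test with the same sign. The rule required this with all libraries and without 2D replicate A, so passing is not a separate result. On the log2 scale and against wt first, then KOd, the response of labelled KOs was more positive for CCN4 by 3.86 and 4.31, for CYP26B1 by 3.47 and 4.26, for PABPC1L by 3.42 and 3.75, and for NRP2 by 3.14 and 3.24. It was more positive for IL1B by 3.13 and 3.04 and for CENPE by 2.91 and 3.06. The differences were negative for KRT5 (-6.69 and -7.67), TSPAN8 (-5.89 and -4.79), H19 (-5.44 and -4.95), KRT17 (-5.78 and -4.72), TNFRSF21 (-4.80 and -4.58) and IGFBP2 (-4.70 and -4.03). Without 2D replicate A, KRT5 came to -4.79 and -5.77, H19 to -4.29 and -3.80, TSPAN8 to -5.20 and -4.10, and KRT17 to -5.12 and -4.07.

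CYP26B1, which breaks down retinoic acid, was at 184, 179 and 191 CPM in labelled KOs 3D and 4.92, 4.00 and 4.63 CPM in labelled KOs 2D, and at 11.6, 11.0 and 25.2 CPM in wt 3D and 4.10, 4.58 and 4.28 CPM in wt 2D, so here the sphere libraries were the ones that lay apart. H19, an imprinted non-coding RNA, was at 2.28, 2.45 and 2.62 CPM in labelled KOs 3D and 6.66, 1.40 and 1.53 CPM in labelled KOs 2D, and at 41.1, 44.1 and 80.0 CPM in wt 3D and 1.28, 1.86 and 1.88 CPM in wt 2D. Library depth and ribosomal RNA share also differed between labelled KOs and the other pools, and their part in these differences was not tested.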

How the results depend on the processing

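The 10614 genes that passed numbered 9622 to 11566 with any 1 library left out, the rises 4836 to 6100 and the falls 4731 to 5466. Genes that differed in response numbered 5142 to 6893 against wt and 5995 to 7959 against KOd. A log2 fold change of at least 1 left 4216 genes, 3099 rises and 1117 falls, and left 2716 differences against wt and 2911 against KOd; an adjusted p under 0.01 left 3798 against wt. The other settings kept each of these counts within 1.5 times. For genes passed, DESeq2 gave 10668, limma-voom 10820, library totals 10327, the compared groups alone 8769 and replicate A as the single 2D library 8557. Labelled KOs alone without A gave 11881 and allowed no difference against other pools. Over 215 of the named genes, 4435 of 4511 values under other settings kept direction and side of the threshold, 58 no longer passed, 14 newly passed and 4 reversed. Nearly all of these genes were chosen by adjusted p, and some also for passing without A, so this stability was partly built in. Genes named only as highest or lowest in A were not among them. All 4 reversals were H19, whose log2 fold change of -0.41 became 0.743 without 2D replicate A, 0.735 with labelled KOs alone and no A (adjusted p = 0.00465 in edgeR), and 0.01 both with the block in the compared groups alone and with a prior count of 0.5. Its values were -0.76 to 0.743 with each library left out.

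Deviations from the group means had correlations of -0.004, -0.008 and -0.044 between 3D and 2D libraries of the same letter. The 3D libraries hardly differed from each other, so these values cannot tell whether the letters pair the libraries. With the replicate block, 10584 genes passed in all groups and 7619 in the compared groups alone (4054 rises, 3565 falls), and 5995 and 4222 differed against wt, 6774 and 6082 against KOd. Medians of lists with under 10 tested members rest on few genes. Fold changes of genes with few reads in 2D, such as IL33, depend on how low counts are treated, which the SE does not show. Genes that varied among the 2D libraries, such as COL3A1, had larger SEs than IL33.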

Other observations

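Regulators of chromatin, which the report does not describe, gave 10 rises and 6 falls among 32 polycomb and histone methylation enzymes, with a median log2 fold change of 0.20. The share of rises was near that of all genes, and under library totals 19 rose and 3 fell, with a median of 0.42. KDM6B, a demethylase of the polycomb mark that NF-kB can induce, was at 42.6, 40.6 and 43.5 CPM in labelled KOs 3D and 12.2, 17.5 and 10.8 CPM in labelled KOs 2D (1.65 ± 0.15). DNMT3A, a DNA methyltransferase, rose by 1.70 ± 0.17 and EZH1 by 1.18 ± 0.14, whereas EZH2 had 31.1, 35.0 and 33.6 CPM in 3D and 30.0, 38.2 and 40.0 CPM in 2D and did not pass the test. Cancer-testis antigens rose in 2 of 14 and fell in 8, with a median of -0.63. XAGE1A was at 97.2, 101 and 96.4 CPM in 3D and 196, 231 and 254 CPM in 2D (-1.21 ± 0.09), and MAGEC1 rose (1.71 ± 0.23).

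IGF-binding proteins and IGF receptors rose in 6 of 17 and fell in 3, with a median of 0.08, a share of rises near that of all genes. IGFBP4, a secreted inhibitor of IGF, fell by 1.59 ± 0.24, while IGFBP7 (1.55 ± 0.14) and the clearance receptor IGF2R (1.15 ± 0.15) rose. Metallothioneins and the zinc exporter SLC30A1 rose in 1 of 9 and fell in 2, with a median of -0.12 that became 0.11 under library totals. MT2A, the most abundant of them, was at 706, 662 and 680 CPM in 3D and 639, 718 and 862 CPM in 2D, so its levels overlapped.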
